A study of Mus musculus with 20 samples.

Results

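Monocytes and microglia of the injured mouse brain were compared in the control animals of the Cxcr4CreER line, in which a tamoxifen-dependent Cre recombinase is expressed from the locus of the chemokine receptor Cxcr4. The comparison is between 6 of the 20 libraries of the series. It covers 12432 of the 16140 listed genes, those that reached 10 normalized counts in 3 or more libraries of the Cre table. The 6 libraries are 3 of TdT-positive cells labelled monocytes and 3 of TdT-negative cells labelled microglia, where TdT stands for a red fluorescent reporter that Cre switches on. All animals of the series had been examined 3 days after permanent photothrombosis, which makes a lasting cortical stroke by exciting a circulating dye with light until vessels clot. The design text calls the control animals wt mice; the other Cre libraries, 6 in number, come from animals of the same line with a conditional Cxcr4 knockout (KO), and 8 libraries come from Cxcr4-GFP mice, 4 of them from pooled animals. Animal 19447 gave monocytes 1 and microglia 1, and animal 19446 gave monocytes 3 and microglia 3. Monocytes 2 came from animal 19448 and microglia 2 from animal 19439. Population and reporter signal coincide, the labels name no other sort marker, and the sources used here give no age, tamoxifen schedule or strain. Differences therefore stand between reporter-positive and reporter-negative brain cells of these animals, and p-values measure the spread among 3 libraries a group.

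Microglia are the resident macrophages of the brain; they arise from yolk sac progenitors, renew themselves locally and keep their identity through local transforming growth factor β and colony-stimulating factor 1. Monocytes are made in the bone marrow, leave it for the blood under control of the chemokine receptors Ccr2 and Cxcr4, and enter the injured brain, where they become macrophages. Both are mononuclear phagocytes and share many genes, and the 2 are usually told apart by Ccr2, Ly6c2 and high lysozyme on the side of monocytes and by P2ry12, Tmem119 and Sall1 on the side of microglia.

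The results turn first on 4 genes that mark the populations, and the 250 bases before their start sites are shown here because each gene parts the libraries without overlap. The sequences are from RefSeq (build GRCm38.p6, 5′ to 3′ on the strand of the gene); the sources used here do not give the build behind the counts.
Ccr2, chr9:124101933-124102182, plus strand: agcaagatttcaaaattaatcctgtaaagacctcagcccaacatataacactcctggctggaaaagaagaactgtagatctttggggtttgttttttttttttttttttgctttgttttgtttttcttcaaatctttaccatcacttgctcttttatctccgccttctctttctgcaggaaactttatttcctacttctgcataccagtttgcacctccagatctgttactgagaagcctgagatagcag
Lyz2, chr10:117282273-117282522, minus strand: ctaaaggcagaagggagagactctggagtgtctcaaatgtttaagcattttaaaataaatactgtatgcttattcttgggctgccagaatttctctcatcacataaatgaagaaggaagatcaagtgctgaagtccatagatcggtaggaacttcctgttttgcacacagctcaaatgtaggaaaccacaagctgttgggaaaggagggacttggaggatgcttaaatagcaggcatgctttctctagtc
P2ry12, chr3:59262986-59263235, minus strand: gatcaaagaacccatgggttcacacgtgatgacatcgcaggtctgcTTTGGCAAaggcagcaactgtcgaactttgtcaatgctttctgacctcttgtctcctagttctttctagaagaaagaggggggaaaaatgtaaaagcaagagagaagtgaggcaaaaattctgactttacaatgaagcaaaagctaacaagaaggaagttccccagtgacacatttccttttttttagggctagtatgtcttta
Cst3, chr2:148875513-148875762, minus strand: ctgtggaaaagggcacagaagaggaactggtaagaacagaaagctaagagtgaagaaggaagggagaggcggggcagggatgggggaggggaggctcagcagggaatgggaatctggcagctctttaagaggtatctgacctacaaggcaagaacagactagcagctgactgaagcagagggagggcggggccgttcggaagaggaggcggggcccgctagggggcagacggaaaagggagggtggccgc
The capitals mark a match to the letters TTGCNNAA of the C/EBP motif, found on the opposite strand of P2ry12. Both strands were searched for this motif and for GAGGAAGT, letters of the PU.1 motif, and no other match lay in these 4 windows. Over all 27025 genes of the promoter table, 9.55% hold TTGCNNAA and 2.44% hold GAGGAAGT in the same window. Promoters were found for 335 of the 430 genes called higher in monocytes below, too few for a comparison of motif shares between called genes and others, which is void and not given.

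These markers matched the labels in all 6 libraries. Ccr2, the receptor that draws monocytes out of the marrow, had 13094, 14894 and 14058 normalized counts in monocytes 1, 2 and 3 and 22.5, 13.8 and 5.98 in microglia 1, 2 and 3. Lyz2, the lysozyme of myeloid cells, had 177730, 178230 and 173820 in monocytes against 9929, 17681 and 16601 in microglia. Both genes were higher in every monocyte library than in any microglia library, and Lyz2 was still present in all microglia libraries. In the opposite direction, P2ry12, the ADP receptor that steers microglial processes, had 1631, 1025 and 1600 in monocytes against 26681, 21777 and 37799 in microglia. Cst3, the protease inhibitor cystatin C, had 46244, 49288 and 48435 against 309300, 304310 and 517910. The log2 folds, here the fitted difference of log2(normalized count + 1) between monocytes and microglia, were 10.03 (SE 0.49, adjusted p 1.64e-06) for Ccr2, 3.63 (SE 0.21, adjusted p 3.79e-06) for Lyz2, -4.33 (SE 0.26, adjusted p 4.59e-06) for P2ry12 and -2.93 (SE 0.22, adjusted p 1.68e-05) for Cst3. Each of these also gave an exact two-sided permutation p of 0.1, the smallest that 3 against 3 libraries allow. Cxcr4 itself had 1183, 1332 and 1166 in monocytes against 0, 7.88 and 0 in microglia (log2 fold 9.21, SE 1.10, adjusted p 0.000431). Because Cxcr4 drives the reporter by which the cells are labelled, its level serves to check them.

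**Figure D1:**
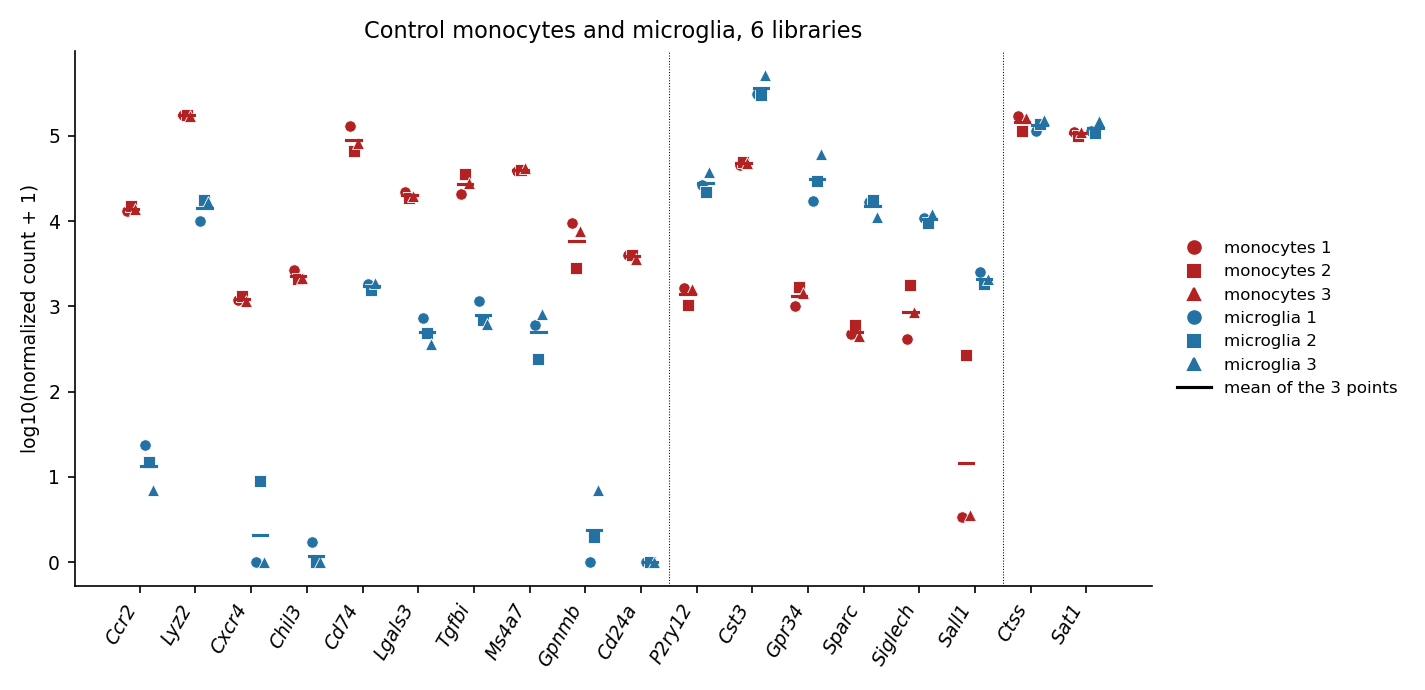
Normalized counts of 18 genes in each of the 6 control libraries, on a log10(value + 1) axis, with monocytes in red, microglia in blue and a bar at the mean of the 3 points. The first 10 genes lie higher in all 3 monocyte libraries, the next 6 lie higher in all 3 microglia libraries, and Ctss and Sat1 overlap; monocytes 2 stands apart for Sall1.

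Depth and makeup differed between the libraries in ways that touch the results. Microglia 1, 2 and 3 held 27161450, 15945290 and 23786463 reads, and monocytes 1, 2 and 3 held 26218004, 10406321 and 14511659. Monocytes 2 had 10350 detected genes against 11930 to 13208 in the other 5, and its rank correlation with the other monocyte libraries was 0.715 and 0.711 against 0.818 between monocytes 1 and 3. Of the genes at 200 normalized counts or more in both other monocyte libraries, 266 of 4986 (5.33%) were at 0 in monocytes 2, against 0.369% and 0.437% in the same count for monocytes 1 and 3. Microglia 2 carried Xist, the transcript of the inactive X chromosome, at 4453 normalized counts against 87.2 to 263 in the other 5 libraries, and the Y-linked gene Ddx3y at 3.94 against 995.6 to 2662 in the other 5 libraries. This is the pattern of a female animal among 5 libraries with that of males; the labels give no sex, and sex and library cannot be told apart. Counts of called genes are therefore also given without monocytes 2 and without microglia 2.

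Of 12432 tested genes, 810 (6.52%) passed the test at an adjusted p under 0.05, of which 430 (3.46%) were higher and 380 (3.06%) lower in monocytes. Among the genes that rose were 16 of 24 listed genes of monocyte identity, 14 of 56 of the cytoskeleton, 11 of 36 of lipid handling and 11 of 51 of the interferon response. Among those that fell were 25 of 28 homeostatic genes of microglia, 8 of 13 mitochondrially encoded protein genes, 10 of 39 adhesion genes and 8 of 27 matrix genes. Among all tested genes, 2751 (22.1%) did not overlap between the groups, and 2426 had an unadjusted p under 0.05. Of the called genes 809 were without overlap. With only the 6 control libraries fitted, so that KO libraries gave no part of the spread, 386 genes passed. The median log2 fold of all tested genes was -0.24, so single folds are to be read against that value. Called genes took 24% of the normalized counts of monocytes on the higher side against 6.08% in microglia, and 4.75% against 21.8% on the lower side.

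The median absolute log2 fold was 4.34 among genes that rose and 5.16 among genes that fell, with 318 and 315 beyond 2, 224 and 234 beyond 4, and 90 and 27 beyond 8. Of the genes that rose 57 were at 0 in all microglia libraries, among 237 tested genes at 0 there. Of those that fell 91 were at 0 in all monocyte libraries, among 524 tested genes at 0 there. The share that passed differed with abundance. When the genes were put by mean level into 4 classes of equal size, 1.64% of the 3108 genes of the lowest class were called, 4 higher and 47 lower, with a median SE of 1.68, whereas in the highest class 14.2% were called, 301 higher and 139 lower, with a median SE of 0.45. The surplus of higher calls lay among abundant genes, and calls among rare genes were mostly lower.

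**Figure D2:**
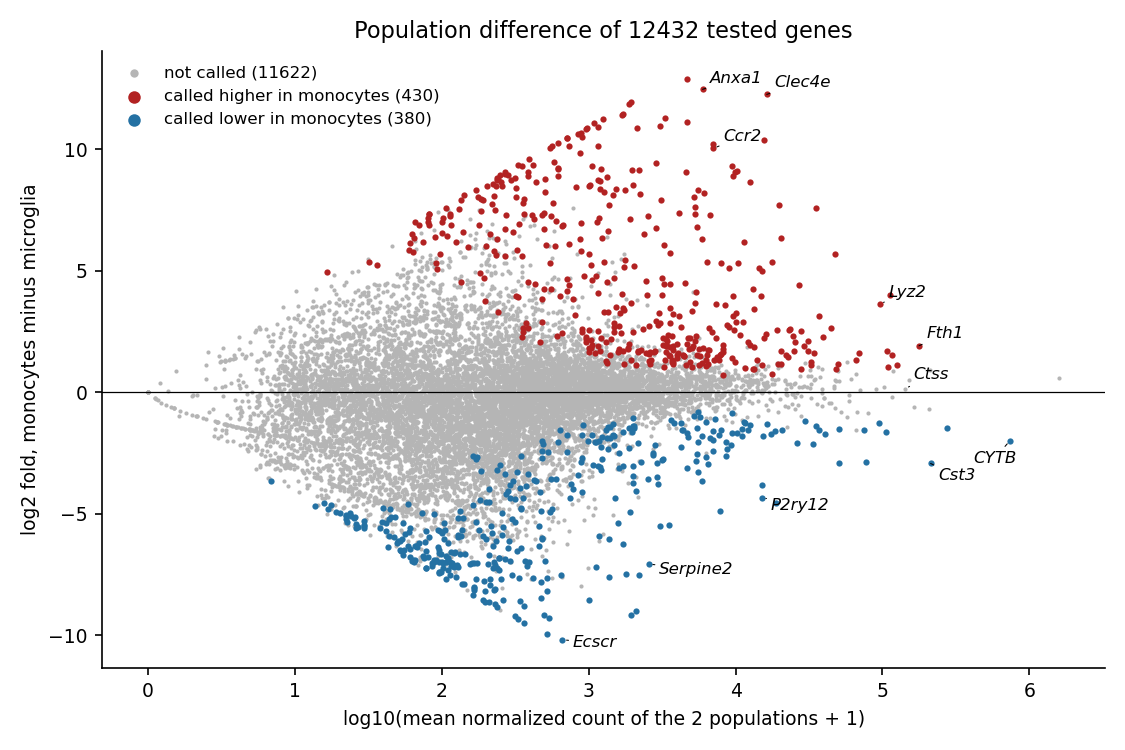
Log2 fold of each of 12432 genes, monocytes minus microglia, against its mean level, with called genes in red (430 higher) and blue (380 lower). The lowest of 4 equal classes by level holds few called genes (1.64%), and named genes such as Ccr2 and Clec4e above and Cst3, Serpine2 and CYTB below mark both ends.

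The balance of directions depended on scaling and on single libraries. With upper quartile scaling 338 genes were higher and 452 lower, and the median of all genes moved to -0.47. Without microglia 2 the counts were 398 and 235, and without monocytes 2 they were 369 and 303, with a median of all genes of -0.03. With the animal as a fixed block, which rests on the 2 animals that gave both populations, 139 genes passed, 108 higher and 31 lower, and 134 of them were among the 810. The 4 markers and Cxcr4 passed in that fit too, as did 77 of 217 called genes named by the fixed rule. With the animal as a random block 740 genes passed, all among the 810, and of the called genes described below only ND1 lost its call.

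Monocyte genes had the highest share of rises of any list, but the lists were chosen with earlier results of these data known. Those that rose include the markers Ccr2 and Lyz2 and Cxcr4, which drives the reporter, so the share is a description and no test. Of 24 listed genes of monocyte identity and chemotaxis, 16 rose, none fell and 8 did not pass (median log2 fold 5.97 against -0.24 over all genes). Chil3, a chitinase-like lectin of classical monocytes, had 2664, 2124 and 2130 in monocytes against 0.703, 0 and 0 in microglia (log2 fold 10.91, SE 1.03, adjusted p 9.12e-05). Coagulation factor X, F10, had 4117, 4044 and 3244 against 55.5, 18.7 and 16.2 (log2 fold 7.14, SE 0.74, adjusted p 0.000186). Ly6c2, the surface antigen of inflammatory monocytes, varied in monocytes with 19510, 5227 and 17255, lowest in monocytes 2, and had 393, 0 and 1.71 in microglia (log2 fold 10.21, SE 1.69, adjusted p 0.00394). The formyl peptide receptor Fpr2 had 202, 160.2 and 123 and was at 0 in all microglia libraries (log2 fold 7.32, SE 1.05, adjusted p 0.00159). For genes at or near 0 in 1 population the fitted fold depends on the added 1 and is no bound. The number that rose was 16 or 17 when any 1 library was left out and 10 with the fixed block.

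Homeostatic microglial genes moved the other way: 25 of 28 fell, none rose and 3 did not pass (median -3.60). Those that fell include the markers P2ry12 and Cst3, and this list too was chosen with earlier results known. Gpr34, a lysophosphatidylserine receptor, had 1009, 1683 and 1419 in monocytes against 17361, 29718 and 61564 in microglia (log2 fold -4.56, SE 0.44, adjusted p 0.000119). Sparc, a secreted matrix protein, had 474, 612 and 444 against 16602, 17617 and 11267 (log2 fold -4.88, SE 0.52, adjusted p 0.000223). P2ry13, an ADP receptor related to P2ry12, had 516, 222 and 505 against 3708, 4373 and 5935 (log2 fold -3.56, SE 0.40, adjusted p 0.000316). Each of these genes was lower in all 3 monocyte libraries. The count of falls was 20 to 23 when 1 library was left out and 10 with the fixed block.

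The level that each set of markers kept in the other population is a further description. The 24 monocyte genes stood in microglia at a median of 0.867% of their mean in monocytes; 6 were at 0, 13 were under 1%, and C5ar1 (46.3%) and F5 (34.1%), which did not pass the test, were among the highest. The 28 microglial genes stood in monocytes at a median of 10.1% of their mean in microglia, with none under 1%. Slco2b1 was lowest at 1.69%, followed by Sall3 at 1.7%; P2ry12 was at 4.93%, Tmem119 at 10.8%, Cx3cr1 at 20.8% and Csf1r at 30.9%. Trem2 (49.3%) and P2ry6 (83.2%) were highest and did not pass. In bulk libraries fewer cells of a type and less RNA per cell cannot be told apart, so these percentages do not say how many cells held the transcripts.

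Markers of further cells that such a sort could hold were read in the same libraries. The 16 listed neutrophil genes summed to 18450, 42540 and 33320 in monocytes 1, 2 and 3 and to 908.1 to 1925 in microglia, and 5 of 15 tested members rose. Among them Retnlg had 1120, 1231 and 1364 and was at 0 in all microglia libraries (log2 fold 10.27, SE 0.96, adjusted p 9.10e-05), and S100a9 had 3979, 6908 and 7575 against 0, 25.6 and 0 (log2 fold 10.96, SE 1.84, adjusted p 0.00412). Mmp8 (log2 fold 8.72, adjusted p 0.000383), Mmp9 and S100a8 rose as well. Of other listed members, the surface antigen Ly6g had 8.69, 0 and 10.2 in monocytes and the elastase gene Elane was at 0 in all 6 libraries. Camp, a late granule gene, had 11.1, 2014 and 110.0, high in monocytes 2 alone, and did not pass (adjusted p 0.199). The border-associated macrophage list summed to 48630, 58640 and 49990 in monocytes against 2181 to 4220 in microglia, mostly from Ms4a7. Of 8 tested members Ms4a7, Pf4 and F13a1 rose and none fell. The mannose receptor Mrc1 had 328, 529 and 79.3 in monocytes against 1512, 695 and 706 in microglia and did not pass. Dendritic cell markers summed to 4317, 2532 and 4565 against 439.9 to 758.2, with Cd209a called (log2 fold 8.83, SE 1.75, adjusted p 0.0103). Hemoglobin and other erythroid markers summed to 0, 0 and 269.8 in monocytes and 2090, 2068 and 701.3 in microglia, with none of 3 tested members called and 2 called lower without monocytes 3. Astrocyte markers summed to 213.5 to 2664 in monocytes and 1715 to 2327 in microglia, and 2 of 6 tested, Aldh1l1 and Slc1a3, fell. The part of these cells in the differences between the populations was not tested.

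Of 36 pattern recognition receptors, which sense microbes and damaged cells, 8 rose, 2 fell and 26 did not pass (median 0.39). Clec4e, the lectin Mincle that senses dead cells and mycobacterial lipid, had 40539, 36525 and 20541 against 141, 0 and 0.854 (log2 fold 12.25, SE 1.48, adjusted p 0.000454). Clec4d, its partner, had 28494, 25829 and 12826 against 288, 249 and 343 (log2 fold 6.18, SE 1.15, adjusted p 0.00764). Dectin-1, Clec7a, had 5900, 5166 and 7695 against 508, 774 and 1577 (log2 fold 2.85, SE 0.43, adjusted p 0.00203). In the opposite direction the Toll-like receptor cofactor Ly86 fell (log2 fold -1.37, SE 0.17, adjusted p 0.000569). Tlr12 had 61.9, 13.8 and 52.1 in microglia and was at 0 in all monocyte libraries (log2 fold -5.20, SE 1.05, adjusted p 0.0112). The Tlr12 call held without any 1 library but in only 5 of 11 other settings. It was lost with a pseudocount of 10, CPM or TMM scaling, edgeR, only the 6 control libraries, or the fixed block.

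Paired and Fc receptors split by member: 8 of 45 rose and 4 fell (median 0.53). The activating receptor Trem1 had 2726, 1189 and 1794 and was at 0 in microglia (log2 fold 10.81, SE 1.36, adjusted p 0.000599), and the signal regulatory gene Sirpb1a had 1210, 1486 and 1592 and was likewise at 0 there (log2 fold 10.47, SE 1.09, adjusted p 0.000186). The microglial lectin Siglech had 416, 1780 and 861 against 10803, 9448 and 12134 (log2 fold -3.64, SE 0.49, adjusted p 0.000923), highest in monocytes 2. Fcgr3, an activating receptor for immunoglobulin G, was lower in monocytes with 11154, 8328 and 8471 against 19531, 24377 and 25582 (adjusted p 0.013, and 0.0505 without microglia 3), and so was the checkpoint receptor Vsir (log2 fold -2.18, SE 0.46, adjusted p 0.0151, and 0.0517 without microglia 2).

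Antigen presentation through MHC class II, by which phagocytes show peptides to helper T cells, was higher in monocytes in part. Of 18 genes 6 rose and 1 fell (median 1.31). Cd74, the invariant chain that carries class II molecules, had 129860, 66407 and 83756 against 1832, 1551 and 1887 (log2 fold 5.68, SE 0.33, adjusted p 3.79e-06), and H2-Ab1 had 100300, 49972 and 59894 against 499.9, 139.8 and 612 (log2 fold 7.58, SE 0.64, adjusted p 4.67e-05). Monocytes 1 was highest for both. H2-Eb1 had 25212, 13606 and 20196 against 6.33, 14.8 and 408 (log2 fold 9.04, SE 1.38, adjusted p 0.00227), with microglia 3 well above microglia 1 and 2. Cd83, which stabilizes class II at the surface, fell (log2 fold -1.20, SE 0.26, adjusted p 0.0178, and 0.0658 without microglia 2). In the class I list 2 of 25 rose and 1 fell, among them the class I transactivator Nlrc5, which had 5793, 6305 and 5207 against 2016, 1366 and 1908 (log2 fold 1.73, SE 0.33, adjusted p 0.00848).

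Interferon-inducible genes rose in part. Of 51 listed genes 11 rose and none fell (median 1.13), and 15 rose without monocytes 2. Ifitm2, a membrane protein that blocks virus entry, had 16006, 13134 and 11930 against 1135, 1302 and 866 (log2 fold 3.64, SE 0.27, adjusted p 1.79e-05). Slfn4 had 12648, 4990 and 10293 against 0, 0 and 60.7 (log2 fold 11.10, SE 1.35, adjusted p 0.000471), and Slfn1 had 4985, 3375 and 4436 against 0, 0 and 10.3 (log2 fold 10.88, SE 1.26, adjusted p 0.000358). The interferon-inducible nuclear protein gene Ifi203 had 6505, 4205 and 7796 against 24.6, 18.7 and 29 (log2 fold 7.92, SE 0.52, adjusted p 6.67e-06). Of the 8 genes with the largest spread among monocytes 4 were interferon-linked, and the others were Ndor1, Ptcd2, BC147527 and Ccr7. Il18bp, a decoy for interleukin 18, had 1222, 0 and 2363; Ifit1bl1 had 1217, 0 and 2005, Oas1g 1601, 0 and 1384 and Ddx60 1150, 0 and 1548. All 4 were at 0 in monocytes 2 and at 1150 or more in monocytes 1 and 3. None passed the test between populations (adjusted p 0.708, 0.74, 0.686 and 0.423). Of 4986 genes at 200 or more in both other monocyte libraries, 266 (5.33%) were at 0 in monocytes 2. Zeros of that library were thus not confined to interferon-linked genes.

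Roots of gene symbols with at least 6 tested members were counted as families after their values were seen, so they serve as a description. Of 10 Ms4a genes, which encode tetraspan membrane proteins, 9 rose and none fell (median 5.38), against 3.46% of all genes; Ms4a7 had 38354, 39720 and 42379 against 612, 240.3 and 824 (log2 fold 6.34, SE 0.42, adjusted p 7.50e-06). Of 9 S100a genes, small calcium-binding proteins, 6 rose (median 4.7), and of 7 Tnfsf genes, ligands of the TNF family, 3 rose and 1 fell. Of 9 annexins Anxa1, Anxa2 and Anxa5 rose and Anxa3 fell. Anxa1 had 13327, 9728 and 12683 against 2.11, 1.97 and 0 (log2 fold 12.46, SE 1.33, adjusted p 0.000213). Of 6 peroxiredoxins 3 rose, of 8 Slfn genes 4 and of 26 H2- genes 4.

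Interleukin-1 genes were called in both directions. In the interleukin-1 list 6 of 24 rose and 3 fell (median 0.31). Il1rn, the receptor antagonist, had 12256, 12581 and 10273 against 81.6, 134 and 281 (log2 fold 6.31, SE 0.49, adjusted p 2.53e-05). Il1b, the secreted agonist, had 88757, 77089 and 65315 against 9803, 12338 and 15618 (log2 fold 2.63, SE 0.26, adjusted p 0.000139), and the decoy receptor Il1r2 had 3486, 1091 and 4204 against 27.4, 0 and 26.5 (log2 fold 8.10, SE 1.44, adjusted p 0.00587). Its partner agonist Il1a was higher in microglia, with 43665, 52837 and 64758 against 19120, 13246 and 7012 in monocytes (log2 fold -2.13, SE 0.37, adjusted p 0.00539). Agonist, antagonist and decoy were thus higher in monocytes and Il1a in microglia. None of the 4 overlapped between the groups, which also held for 809 of the 810 called genes and for 22.1% of all tested genes. The number that rose was 3 without monocytes 2 or microglia 3.

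Of 23 chemokine ligands 8 rose and 2 fell (median 1.28). Cxcl2, which attracts neutrophils, had 26371, 35535 and 13223 against 1685, 1712 and 621 (log2 fold 4.25, SE 0.47, adjusted p 0.000287), and Cxcl16 had 11147, 15712 and 12366 against 4212, 3122 and 2968 (log2 fold 1.93, SE 0.22, adjusted p 0.000358). Pf4, platelet factor 4, had 5296, 12219 and 3054, highest in monocytes 2, against 830.4, 591 and 484 (log2 fold 3.23, SE 0.57, adjusted p 0.00555), and Ccl9 rose as well (log2 fold 1.60, SE 0.29, adjusted p 0.00681). The monocyte attractant Ccl12 was higher in microglia, with 75939, 51551 and 142700 against 11531, 7663 and 14825 in monocytes (log2 fold -2.91, SE 0.38, adjusted p 0.000771), and so was Ccl3 with 82871, 78949 and 63388 against 28913, 31798 and 19064 (log2 fold -1.52, SE 0.31, adjusted p 0.0129). These 2 falls remained called whichever library was left out and with the fixed block, while the number of chemokines that rose was 4 without monocytes 1 and 5 without microglia 2 and 2 with the fixed block.

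Of 33 other cytokines and growth factors 6 rose and 1 fell (median 0.33), and 3 rose without monocytes 3. Vegfa, the vascular growth factor, had 1619, 1514 and 1116 and was at 0 in all microglia libraries (log2 fold 10.45, SE 1.13, adjusted p 0.000234). The lectin Lgals3 had 22130, 18657 and 19829 against 733, 484 and 360.5 (log2 fold 5.32, SE 0.31, adjusted p 3.79e-06), among the smallest p-values of the comparison. Csf1r, the receptor on which microglia depend, fell to 2722, 7362 and 5529 against 13487, 20604 and 16403 (log2 fold -1.79, SE 0.33, adjusted p 0.00753), and its ligand Csf1 had 52.1, 2.19 and 138 against 1010, 1039 and 597 (log2 fold -4.90, SE 1.12, adjusted p 0.0216, and 0.0693 without microglia 2). In the transforming growth factor β list 2 of 28 rose and 2 fell (median -0.37). The induced matrix protein Tgfbi had 20637, 35581 and 28185 against 1165, 686 and 629 (log2 fold 5.11, SE 0.33, adjusted p 6.55e-06), and Thbs1, which activates the latent factor, had 42890, 47578 and 27916 against 527, 343 and 34.2 (log2 fold 7.70, SE 0.83, adjusted p 0.000238). The receptors Tgfbr1 (log2 fold -1.48, SE 0.37, adjusted p 0.0349, and 0.118 without microglia 1) and Tgfbr2 (log2 fold -1.74, SE 0.46, adjusted p 0.0438, and 0.122 without microglia 1) were lower in monocytes, and without microglia 1 neither passed.

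Of 37 tested transcription factors of myeloid lineages 6 rose, 5 fell and 26 did not pass (median 0.19). Runx3 had 2333, 2028 and 2546 against 0, 7.88 and 0 (log2 fold 10.11, SE 1.07, adjusted p 0.000206), the aryl hydrocarbon receptor Ahr had 307, 92.2 and 277 against 0, 0 and 0.854 (log2 fold 7.35, SE 1.10, adjusted p 0.00202), and Irf7, a driver of interferon genes, had 4392, 3042 and 8893 against 733, 637 and 690.2 (log2 fold 2.84, SE 0.50, adjusted p 0.00566). Sall3 had 29.2, 65.8 and 23 against 3386, 1811 and 1738 (log2 fold -5.92, SE 0.65, adjusted p 0.000267). Its relative Sall1, a factor of microglial identity, had 2519, 1809 and 2105 in microglia and 2.37, 266 and 2.56 in monocytes, so that monocytes 2 stood far above the other monocyte libraries (log2 fold -7.17, SE 1.54, adjusted p 0.0157, and 0.0591 without monocytes 1). The paired helix-loop-helix repressors Bhlhe40 and Bhlhe41 moved apart: Bhlhe40 had 1229, 2451 and 1417 against 0.703, 148 and 94.8 (log2 fold 5.81, SE 1.39, adjusted p 0.0272, and 0.078 without monocytes 2) and Bhlhe41 had 19291, 21247 and 15086 against 70925, 48890 and 45822 (log2 fold -1.56, SE 0.29, adjusted p 0.00768). Spi1, which encodes the factor PU.1 of both cell types, had 1426, 1685 and 1183 against 1154, 1075 and 542 and did not pass (log2 fold 0.69, SE 0.49, adjusted p 0.487). The number that rose was 3 without monocytes 1, monocytes 2 or monocytes 3, and the number that fell was 2 or 3 without any 1 library.

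Of 30 immediate early genes 6 rose and 5 fell (median -0.10), close to balance. Fosl2 had 5877, 4216 and 6579 against 1046, 1565 and 1215 (log2 fold 2.12, SE 0.31, adjusted p 0.00192) and the nuclear receptor Nr4a3 had 3240, 2695 and 2387 against 612, 359 and 597 (log2 fold 2.43, SE 0.43, adjusted p 0.00578). In the opposite direction Jun had 730.4, 276 and 1492 against 5486, 5000 and 4534 (log2 fold -2.89, SE 0.51, adjusted p 0.00566), and the small GTPase gene Rhob had 759, 529 and 1188 against 6747, 5006 and 4816 (log2 fold -2.80, SE 0.32, adjusted p 0.000358). Egr1 had 4144, 2298 and 3927 against 16612, 14929 and 14082 (log2 fold -2.18, SE 0.49, adjusted p 0.0208, and 0.0687 without monocytes 2). The number that rose was 2 without monocytes 1 and 3 without monocytes 2, microglia 1 or microglia 3 and 2 with upper quartile scaling; the number that fell was 2 without microglia 1 and 3 without microglia 2 or microglia 3. In the NF-kB list 6 of 31 rose and none fell (median 0.61), led by the inhibitor gene Nfkbie, which had 2288, 3022 and 1967 against 240.5, 496 and 114 (log2 fold 3.32, SE 0.69, adjusted p 0.0134, and 0.0517 without microglia 3). The number that rose was 1 without monocytes 1, 2 without microglia 3 and 3 without monocytes 2 or microglia 1, and none passed with the fixed block.

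**Figure D3:**
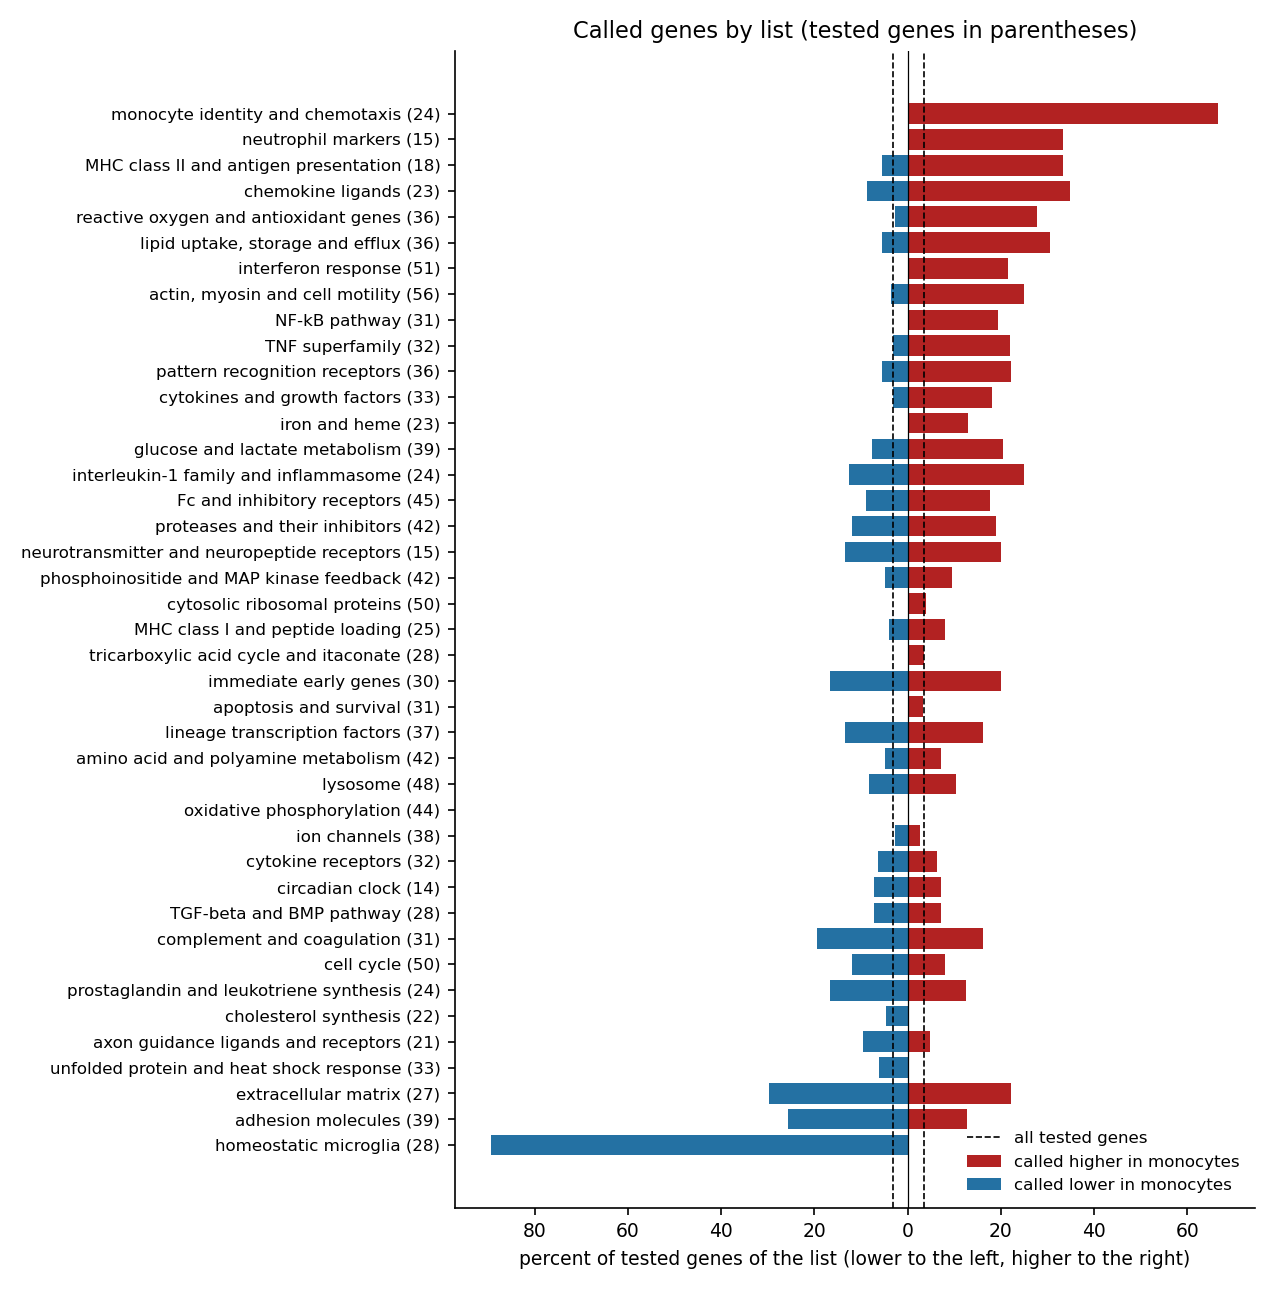
Share of the tested genes of each list that were called higher (red, to the right) or lower (blue, to the left) in monocytes, with the tested number in parentheses and dashed lines at the shares of all tested genes, 3.46% and 3.06%. Monocyte identity (16 of 24) and homeostatic microglia (25 of 28) lie at the ends, and matrix, complement and immediate early lists have called genes on both sides.

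Mitochondrially encoded transcripts were lower in monocytes than in microglia. All 13 protein genes of the mitochondrial genome had a negative log2 fold (median -1.54), 8 fell (against 3.06% of all genes), 5 did not pass and 12 of 13 did not overlap (against 22.1% of all genes). The whole set was taken up after several of its members appeared among the largest differences. CYTB, the cytochrome b of complex III, had 252250, 360100 and 234950 in monocytes against 1087300, 682730 and 1809000 in microglia (log2 fold -1.99, SE 0.33, adjusted p 0.00399). The complex I subunit ND4 had 35530, 43810 and 29793 against 121810, 63056 and 154090 (log2 fold -1.56, SE 0.32, adjusted p 0.0122). COX1 had 175390, 151940 and 134210 against 227090, 160630 and 402750, with monocytes 1 above microglia 2, and did not pass (log2 fold -0.68, SE 0.26, adjusted p 0.16). These 13 genes took 3.76%, 4.1% and 3.72% of the normalized counts in monocytes 1, 2 and 3 and 11.85%, 9.22% and 18.97% in microglia 1, 2 and 3. In the KO animals the shares were 2.7% to 4.86% and 11.43% to 13.48%.

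Nuclear genes of the same respiratory chain were read beside them. Of 44 listed nuclear subunits none was called in either direction with the authors' scaling by limma or with edgeR, against 6.52% of all genes, and the median log2 fold was 0.13. None was called higher and 1, Ndufa9, was called lower with DESeq2, under CPM or upper quartile scaling, and with a filter of 50 in 3 libraries. The subunit gene with the smallest p, Ndufa9, had 1566, 790.0 and 1729 against 3032, 2884 and 3786 (log2 fold -1.32, SE 0.37, adjusted p 0.0553). The number of mitochondrial genes that fell was 2 without monocytes 1, monocytes 3 or microglia 3, 4 without microglia 1 and 5 without monocytes 2, 4 with the fixed block, 7 with edgeR, 13 with CPM scaling and 12 with upper quartile scaling, and none rose in any of these. The calls of CYTB and ND4 held without any 1 library, whereas ATP6 (adjusted p 0.077 without monocytes 1), ATP8 (adjusted p 0.093 without microglia 3) and ND1 (adjusted p 0.144 without microglia 3) lost theirs.

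**Figure D4:**
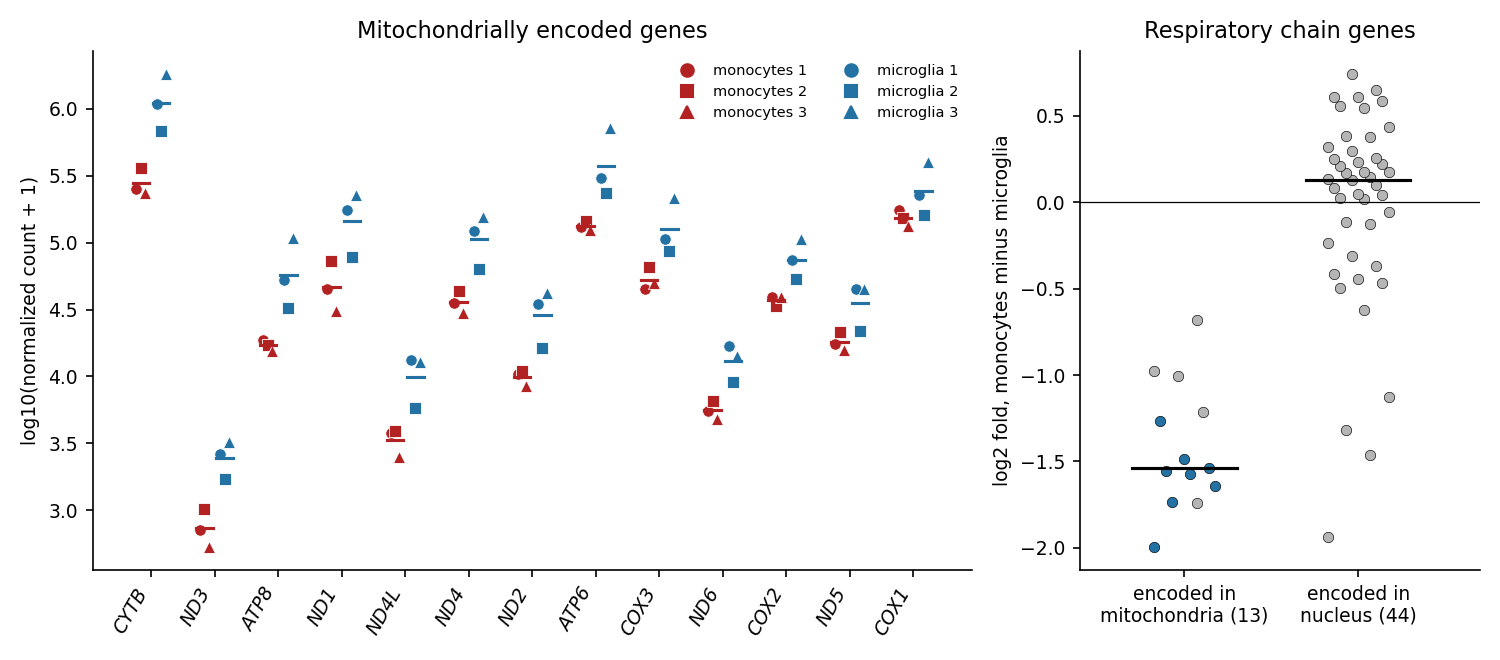
Left, normalized counts of the 13 mitochondrially encoded protein genes in each control library on a log10(value + 1) axis, monocytes in red and microglia in blue, with bars at the means. Right, log2 folds of these 13 genes and of 44 nuclear respiratory chain genes, filled blue where called lower and grey where not called, with bars at the medians of -1.54 and 0.13.

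Energy and nutrient genes outside the mitochondria changed in part. Of 39 genes of glucose and lactate metabolism 8 rose and 3 fell (median 0.93). The number that rose was 3 without monocytes 1, 4 without monocytes 2 or monocytes 3 and 5 without microglia 2 or microglia 3, the number that fell was 1 without microglia 1 or microglia 3, and none passed with the fixed block. Pgk1, a phosphoglycerate kinase, had 10641, 10544 and 7085 against 2978, 2600 and 4269 (log2 fold 1.53, SE 0.25, adjusted p 0.00355), and the aldolase gene Aldoa had 9494, 10406 and 7193 against 3205, 4404 and 3104 (log2 fold 1.34, SE 0.27, adjusted p 0.0118). Lactate dehydrogenase B, Ldhb, had 1327, 2690 and 1285 against 7057, 13399 and 11957 (log2 fold -2.65, SE 0.45, adjusted p 0.00431). Of 42 amino acid and polyamine genes 3 rose and 2 fell (median -0.10), and 5 rose without monocytes 2. Arg1, an arginase of wound macrophages, had 13268, 12862 and 6167 against 9.84, 159.5 and 452 (log2 fold 6.78, SE 1.29, adjusted p 0.00832), its paralog Arg2 had 2338, 3463 and 1400 against 54.8, 0 and 0 (log2 fold 9.20, SE 1.56, adjusted p 0.00434), and the cystine transporter Slc7a11 had 2049, 2309 and 1661 against 112, 211 and 21.4 (log2 fold 4.62, SE 0.86, adjusted p 0.00768). Glutamine synthetase, Glul, had 3743, 2313 and 2675 against 10255, 10960 and 12206 (log2 fold -1.96, SE 0.28, adjusted p 0.00168), and the glutamate transporter Slc1a3, which astrocytes also express, had 86.9, 17.6 and 179 against 1048, 1457 and 1672 (log2 fold -4.36, SE 0.85, adjusted p 0.00916).

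In the list of lipid uptake, storage and efflux 11 of 36 rose, 2 fell and 23 did not pass (median 1.69); the number that fell was 0 without microglia 2 and 1 without monocytes 1, monocytes 3, microglia 1 or microglia 3. Apoe, the lipid carrier of phagocytes, had 264040, 153460 and 215240 against 8187, 29521 and 9162 (log2 fold 3.98, SE 0.41, adjusted p 0.00017). Gpnmb, a glycoprotein of lipid-laden macrophages, had 9555, 2820 and 7585 against 0, 0.985 and 5.98 (log2 fold 11.26, SE 0.97, adjusted p 4.98e-05). Fabp4, a fatty acid binding protein, had 1011, 268 and 242 and was at 0 in microglia (log2 fold 8.66, SE 1.11, adjusted p 0.000694). Lpl, lipoprotein lipase, was higher in microglia with 905, 1089 and 682 against 101, 165 and 246 (log2 fold -2.45, SE 0.51, adjusted p 0.0143, and 0.0574 without microglia 2). Fth1, the ferritin heavy chain, had 315360, 284500 and 240680 against 78471, 76240 and 67806 (log2 fold 1.91, SE 0.14, adjusted p 1.27e-05), the largest difference of means among genes that rose; of 23 iron and heme genes 3 rose and none fell (median 0.60). Among 22 genes of cholesterol synthesis none rose and 1 fell, Pmvk (log2 fold -7.01, SE 1.59, adjusted p 0.0211, and 0.0718 without microglia 3), 4.55% against the background of 6.52%.

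Lysosomal genes went both ways within 1 organelle. Of 48 genes 5 rose and 4 fell (median 0.01), and 3 rose without monocytes 1 or without monocytes 3. The ganglioside activator Gm2a had 90813, 139030 and 85866 against 34162, 35347 and 30594 (log2 fold 1.62, SE 0.19, adjusted p 0.000358), and the sterol carrier Npc2 had 73435, 39876 and 41647 against 14736, 17346 and 16540 (log2 fold 1.62, SE 0.24, adjusted p 0.00215). In the opposite direction cathepsin L, Ctsl, had 8891, 10375 and 10848 against 43041, 47130 and 37825 (log2 fold -2.09, SE 0.19, adjusted p 9.10e-05). Arsb was at 0 in all monocyte libraries and had 33, 60.1 and 196 in microglia (log2 fold -6.22, SE 1.09, adjusted p 0.00547). Of 42 proteases and protease inhibitors 8 rose and 5 fell (median 0.11); the number that fell was 3 without monocytes 1, monocytes 2 or microglia 2. Cstb, an inhibitor of cathepsins, had 31188, 21398 and 29347 against 4533, 5177 and 5659 (log2 fold 2.40, SE 0.23, adjusted p 9.48e-05), opposite to Cst3, and Slpi, an inhibitor of leukocyte elastase, had 1229, 862 and 1271 and was at 0 in microglia (log2 fold 10.11, SE 1.15, adjusted p 0.000334). Serpine2, a thrombin inhibitor of the brain, had 28.4, 17.6 and 92.1 against 3752, 6426 and 5061 (log2 fold -7.07, SE 0.89, adjusted p 0.000599).

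Of 31 genes of the complement and coagulation cascades 5 rose, 6 fell and 20 did not pass (median 0.10); the falls included the coagulation cofactor Pros1. The initiator chains C1qc (log2 fold -1.79, SE 0.29, adjusted p 0.00351) and C1qb (log2 fold -1.60, SE 0.27, adjusted p 0.00409) fell, with 16403, 28434 and 26440 and 22230, 38687 and 22938 in microglia against 8073, 6050 and 6147 and 8317, 8249 and 10325 in monocytes. The complement receptor chain Itgam had 3748, 3496 and 4029 against 9232, 9547 and 7476 (log2 fold -1.21, SE 0.20, adjusted p 0.00409). Plaur, the urokinase receptor, had 21798, 14595 and 10185 against 1463, 3882 and 2138 (log2 fold 2.69, SE 0.43, adjusted p 0.00321), and thrombomodulin, Thbd, had 3826, 2776 and 5079 against 0.703, 168 and 0 (log2 fold 9.16, SE 1.64, adjusted p 0.00601). The 6 falls remained 6 in number whichever library was left out, but the number was 1 with the fixed block.

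The list of actin, myosin and cell motility leaned to monocytes: 14 of 56 rose and 2 fell (median 0.64), with 12 to 14 rises without 1 library. Those that rose include Anxa1, Anxa2, S100a4, S100a6, S100a10 and S100a11, which were also counted in the families above. Vimentin, Vim, had 24251, 36507 and 26552 against 1403, 1026 and 529.6 (log2 fold 4.97, SE 0.44, adjusted p 6.16e-05). Iqgap1, a scaffold of actin and Rac signalling that is not in the list, had 26471, 31629 and 25869 against 2236, 2173 and 1221 (log2 fold 3.94, SE 0.27, adjusted p 8.73e-06). Tmsb10, an actin-binding peptide, had 14193, 15519 and 16313 against 2107, 2086 and 2535 (log2 fold 2.78, SE 0.25, adjusted p 6.82e-05). In each of these the groups lay far apart compared with the spread within them.

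Adhesion and matrix genes leaned to microglia or to neither. Of 39 adhesion genes 5 rose and 10 fell (median -0.80). Cd93 had 9916, 12552 and 10433 against 12.7, 149.7 and 18.8 (log2 fold 8.31, SE 0.93, adjusted p 0.000296) and the tetraspanin Cd81 had 1802, 2958 and 1468 against 22787, 32656 and 28862 (log2 fold -3.81, SE 0.34, adjusted p 6.16e-05). Tjp1, a tight junction scaffold, had 0.79, 0 and 14.1 against 452, 562 and 426 (log2 fold -7.32, SE 1.25, adjusted p 0.00451). Of 27 matrix genes 6 rose and 8 fell (median -0.22). Ecm1 had 1886, 2495 and 2185 and was at 0 in microglia (log2 fold 11.09, SE 1.34, adjusted p 0.000454), fibronectin Fn1 had 7349, 15223 and 6546 against 951, 1491 and 242 (log2 fold 3.68, SE 0.62, adjusted p 0.00402), and Olfml3 had 1734, 691 and 790.2 against 6677, 13322 and 9893 (log2 fold -3.29, SE 0.40, adjusted p 0.000458). Nephronectin, Npnt, was at 0 in monocytes and had 608, 895 and 368 in microglia (log2 fold -9.19, SE 1.43, adjusted p 0.0026). The number of matrix genes that fell was 4 without monocytes 2 or microglia 2 and 5 without monocytes 3, microglia 1 or microglia 3 and 2 with edgeR.

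Redox and lipid mediator genes were measured as well. Of 36 reactive oxygen and antioxidant genes 10 rose and 1 fell (median 0.74): Mgst1 had 3438, 4345 and 3420 and was at 0 in microglia (log2 fold 11.86, SE 1.43, adjusted p 0.000454), Cybb, the catalytic subunit of the phagocyte oxidase, had 18279, 10950 and 16968 against 1199, 555 and 2851 (log2 fold 3.60, SE 0.54, adjusted p 0.00202), and Prdx6 had 7706, 7002 and 3033 against 147, 504 and 530.5 (log2 fold 4.00, SE 0.62, adjusted p 0.00252). Of 24 prostaglandin and leukotriene genes 3 rose and 4 fell (median 0.33). Ptgs2, the inducible cyclooxygenase, had 9797, 10384 and 5929 against 689, 337 and 217 (log2 fold 4.51, SE 0.54, adjusted p 0.000431). Hpgds, which makes prostaglandin D2, had 4686, 4580 and 5055 against 11236, 13118 and 23089 (log2 fold -1.66, SE 0.27, adjusted p 0.00349), and Ltc4s, the leukotriene C4 synthase, had 301, 219 and 23 against 2430, 4601 and 3901 (log2 fold -4.91, SE 0.84, adjusted p 0.00465). The cyclooxygenase gene Ptgs2 was thus higher in monocytes, and the synthase genes Hpgds and Ltc4s were higher in microglia.

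Of 15 tested receptors for transmitters and neuropeptides 3 rose and 2 fell, 33.3% called against 6.52% of all genes, and without monocytes 2 only 1 rose and none fell. Ptafr, the receptor of platelet-activating factor, had 46097, 51168 and 24360 against 7677, 6163 and 5581 (log2 fold 2.59, SE 0.29, adjusted p 0.000313). Of 21 axon guidance genes 1 rose and 2 fell, 1 without microglia 1 or microglia 2. Plxnc1 had 631, 359.9 and 1306 against 0, 0.985 and 0 (log2 fold 9.05, SE 1.42, adjusted p 0.00261) and Plxna4 had 3.95, 4.39 and 5.11 against 631, 315 and 110.2 (log2 fold -5.69, SE 1.30, adjusted p 0.0216, and 0.0849 without microglia 1). Among 38 ion channels 1 rose and 1 fell, 5.26% against 6.52% of all genes.

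Proliferation genes were higher in microglia in part. Of 50 cell cycle genes 4 rose and 6 fell (median -1.33). Top2a, a topoisomerase of dividing cells, had 131, 136 and 706 against 2289, 1386 and 2240 (log2 fold -3.04, SE 0.61, adjusted p 0.011), and the kinetochore motor Cenpe had 0, 2.19 and 0 against 572, 417 and 1164 (log2 fold -8.79, SE 1.67, adjusted p 0.00848). Mki67, the usual proliferation marker, had 283, 0 and 175 against 1936, 2600 and 548 and did not pass (log2 fold -5.25, SE 1.63, adjusted p 0.0865). The higher genes include cell cycle brakes and cyclin D2: Ccnd2 had 430.3, 522 and 655 against 2.81, 2.95 and 7.69 (log2 fold 6.70, SE 0.81, adjusted p 0.000458), and the antiproliferative gene Btg1 had 168590, 268700 and 87713 against 77011, 39312 and 54069 (log2 fold 1.53, SE 0.35, adjusted p 0.0219, and 0.0836 without microglia 2). The number that fell was 3 without microglia 1, and none passed with the fixed block; the number that rose was 2 without monocytes 2, microglia 2 or microglia 3.

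Signalling, stress and clock genes completed the lists. Of 32 genes of the TNF superfamily and its adaptors 7 rose and 1 fell (median 0.00, and 3 fell without microglia 1), with Traf1, a signalling adaptor, at 1452, 636 and 953 against 22.5, 19.7 and 5.13 (log2 fold 6.06, SE 0.87, adjusted p 0.00159). Of 32 cytokine receptors 2 rose, 1 of them Il7r (log2 fold 3.51, SE 0.55, adjusted p 0.00276), and 2 fell (median 0.36); the number that rose was 1 without monocytes 1, monocytes 3 or microglia 3 and the number that fell was 1 without monocytes 2, microglia 1, microglia 2 or microglia 3. Of 42 genes of phosphoinositide and MAP kinase feedback 4 rose and 2 fell (median 0.31); the number that rose was 1 without monocytes 1 or microglia 3 and 2 without monocytes 2, microglia 1 or microglia 2. Rgs10, a brake on G protein signalling in microglia, had 3406, 4815 and 3873 against 10758, 9057 and 15811 (log2 fold -1.53, SE 0.28, adjusted p 0.0066). A further 3 lists had shares called below the 6.52% of all genes. Of 28 genes of the tricarboxylic acid cycle and itaconate 1 rose and none fell (3.57%). Of 31 of apoptosis 1 rose (3.23%), the death gene Bcl2l11 (log2 fold 4.78, SE 0.97, adjusted p 0.0118). Of 33 of the unfolded protein and heat shock response none rose and 2 fell (6.06%). The 14 clock genes held 2 calls, the repressors Bhlhe40 and Bhlhe41 described above.

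Genes at 0 in 1 population mark the extremes. Cd24a, a sialoglycoprotein, had 4017, 4038 and 3566 in monocytes and no read in microglia (log2 fold 11.92, SE 0.81, adjusted p 8.12e-06), at least 4659-fold higher against a floor of 3 reads over the 3 microglia libraries. Gpr171 had 2553, 1571 and 1675 in monocytes and none in microglia (log2 fold 10.88, SE 0.90, adjusted p 4.44e-05). Clgn, a chaperone of the endoplasmic reticulum, had 392, 377 and 412 in microglia and no read in monocytes (log2 fold -8.62, SE 0.98, adjusted p 0.000334), at least 329-fold lower. Tppp, a tubulin-binding protein, had 617, 638 and 920.0 and Elavl4, an RNA-binding protein known from neurons, had 626, 218 and 523 in microglia, both at 0 in monocytes (adjusted p 0.00233 and 0.000613). Such floors cover counting error only, because without molecular identifiers several reads can come from 1 molecule.

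Shared genes could be named only where the interval was narrow. For 404 genes (3.25%) the 95% interval of the log2 fold, not adjusted for the number of genes, lay within -1 and 1. The most abundant of these were Ctss, Sat1, Malat1, Cd53, Ubb, Hspa8, Canx, Rrm2b, Eef1a1 and Fcer1g. Cathepsin S, Ctss, had 169910, 115400 and 161780 in monocytes and 113850, 138270 and 151970 in microglia (log2 fold 0.14, interval -0.20 to 0.48). The polyamine acetyltransferase Sat1 had 110970, 99875 and 110490 and 114420, 108780 and 149280 (log2 fold -0.20, interval -0.54 to 0.14). Fcer1g, the signalling chain of Fc receptors, had 63420, 42173 and 62625 and 32387, 41084 and 43074 (log2 fold 0.52, interval 0.09 to 0.94). Of 50 cytosolic ribosomal protein genes 2 rose and none fell, 4% against 6.52% of all genes, and the calls of both, Rplp0 (adjusted p 0.134 without monocytes 1) and Rpl10 (adjusted p 0.146 without microglia 2), were lost.

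A few genes varied widely among the 3 libraries of 1 population. Among microglia, Ethe1 had 0, 995 and 1456, Ruvbl1 0, 611 and 1202 and Mrpl28 0, 774 and 768, all at 0 in microglia 1 only. In that library 89 of 5128 genes (1.74%) that reached 200 in both other microglia libraries were at 0, against 0.149% and 0.468% for microglia 2 and 3. Among monocytes, the chemokine receptor Ccr7 had 1150, 1385 and 0 and Ptcd2 had 0, 0 and 1331. None of these 5 genes passed the test between populations.

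The same contrast in KO animals used other libraries of the same table, but shared the estimate of the spread. There 849 genes (6.83%) were called, and 480 were called in both genotypes in the same direction, 59.3% of the control list and 56.5% of the KO list, with none in opposite directions. Of the 430 genes that rose in control animals 420 had a positive log2 fold in KO animals, and of the 380 that fell 352 had a negative one. The folds of the 4 marker genes in KO animals were 7.15 for Ccr2, 3.81 for Lyz2, -4.44 for P2ry12 and -2.60 for Cst3. Cxcr4 had a log2 fold of 9.24 there (adjusted p 0.000453), so its transcript was still higher in KO monocytes than in KO microglia. No gene passed the test of the difference between the 2 contrasts by limma (0%; 590 had an unadjusted p under 0.05) or edgeR, while DESeq2 called 276; without control monocytes 3, 1 passed by limma. Aldh1l1, a folate enzyme used as an astrocyte marker, had the smallest p for this difference among genes called in control animals, with 285, 73.8 and 214 in control microglia, 0 in all control monocytes and a KO fold of 0.41 (difference 7.79, unadjusted p 0.000108, adjusted p 0.301). Ccr2 had a difference of -2.88 (adjusted p 0.621).

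**Figure D5:**
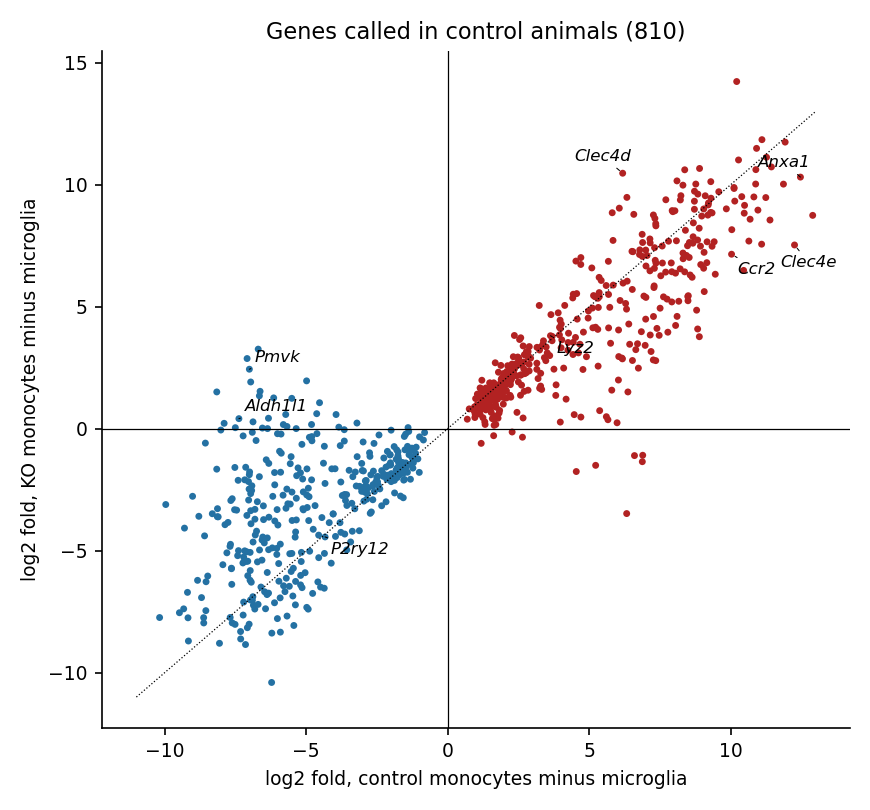
Log2 folds of the 810 genes called in control animals, in control libraries (horizontal axis) and in KO libraries (vertical axis), in red where higher and in blue where lower in control monocytes; the dotted line marks equal folds. Of the red genes 420 of 430 lie above 0 in KO animals, and of the blue genes 352 of 380 lie below 0.

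In the GFP reporter table, made with another library kit and normalized separately, 70 of 7706 genes (0.908%) were called. Of the genes that rose in control Cxcr4CreER monocytes 297 were tested there, 272 had a positive fold and 29 were called; of those that fell 232 were tested, 192 had a negative fold and 32 were called, and none was called in the opposite direction. Lyz2 had a log2 fold of 4.93 (adjusted p 4.44e-05) there, Cst3 -3.02 (adjusted p 8.22e-05), P2ry12 -5.81 (adjusted p 0.00577) and Ccr2 5.56 (adjusted p 0.406), so that Ccr2 alone among the 4 markers did not pass in that table. Bhlhe41, lower in control monocytes here, had a fold of 1.44 there and did not pass (adjusted p 0.999).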

How the data were processed

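RNA was prepared with miRNeasy and SMART-Seq2 from poly(A) RNA, per the labels' protocols. The submitters' processing notes name bcl2fastq 2.20, kallisto and DESeq2. The sources used here do not give the genome build or annotation. The deposited signal values are the authors' normalized counts per gene (reads divided by a size factor per library). Every value was a whole multiple of its library's smallest step within 0.01 (100% of values), so whole reads were recovered; on them edgeR 4.0.16 called 478 genes and DESeq2 1.42.0 called 1614.

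Of 16140 listed genes, 681 names were restored from altered symbols and 24 that had become dates were left as they were. Genes that reached 10 normalized counts in 3 or more libraries were tested with limma 3.58.1 (R 4.3.3) on log2(value + 1), with an intensity trend, over 12 libraries in 4 groups, and p-values were adjusted by the Benjamini-Hochberg method over all tested genes. Call threshold was an adjusted p of 0.05. On simulated data with 12432 genes, limma recovered 27% of genes changed by 3 and 61% of those changed by 6 on the log2 scale, with 5 false calls; DESeq2 made 147. Depth was 10406321 to 27161450 reads in the 6 libraries. Floors of 3 reads and intervals cover counting error or library spread only.

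The animal numbers in the labels pair the populations in 2 control and 2 KO animals, whose deviations from the group means had correlations of -0.056, -0.005, -0.002 and 0.01. Replicates are different animals per the labels. Named genes were, in each direction, those with the smallest p, the largest difference of means or the highest level among genes at 0 in the other population, the most abundant shared genes, up to 4 called members of each list, and the genes with the largest spread or genotype term. Genes outside this rule (markers of other cells, sex-linked genes, mitochondrial genes, symbol families, uncalled list members) were named after their values were seen. The members, lists and rule were chosen with earlier results of these data known. Alternatives covered pseudocount, filter, scaling, test, samples fitted, animal block and each library left out. A few members of the lists are counted but not reported here.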

Additional observations from a re-analysis of the deposited data

How the results depend on the processing

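Of 12432 genes 810 were called, 430 higher and 380 lower in monocytes. No called gene changed sign under any alternative run. With edgeR 478 genes passed (290 higher, 188 lower; 475 among the 810), with DESeq2 1614 (752 and 862; 759 among the 810), and with only the 6 control libraries fitted 386 (221 and 165). With the replicate block, animal as a random term, 740 genes passed; with animal as a fixed term 139 did (108 and 31), a fit that rests on the pairing of the 2 control animals that gave both populations. Leaving out 1 library gave 574 to 679 calls in all, 298 to 398 higher and 231 to 338 lower, with 235 lower without microglia 2 and 231 without microglia 3. The test of the difference between genotypes called 0 genes, 276 with DESeq2, and 0 to 1 when 1 library was left out, the 1 without monocytes 3. Other pseudocounts, filters and scalings gave 712 to 838 calls; upper quartile scaling moved the share of calls that were higher from 53.1% to 42.8%. Of 217 called genes named by rule, 157 passed without any 1 library, 170 with edgeR and 77 with the fixed block. The cause of these differences was not tested. Folds of rarer genes were less precise: the median SE was 1.68 in the lowest of 4 equal classes by level, 1.77 in the second and 0.45 in the highest.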
